A study of Mus musculus with 8 samples.

Results

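The BCL2 family genes decide at the mitochondrion whether a cell lives or dies by apoptosis, and 10 of them are described here in a mouse mammary epithelial line exposed to TGF-β. They were chosen by gene symbol: *Bcl2*, *Bcl2l1* and *Mcl1* on the pro-survival side, *Bcl2l11*, *Bmf*, *Bbc3*, *Pmaip1* and *Bik* among the BH3-only genes, and the effectors *Bax* and *Bak1*. All 10 are present among the 37310 genes counted. Of these, 9 passed the filter on low counts, as did 13028 genes in all, and *Bik* did not.

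The pro-survival proteins bind and hold back the effectors BAX and BAK, which otherwise assemble into pores in the outer mitochondrial membrane and release cytochrome c. The BH3-only proteins report stress: they occupy the groove of the pro-survival proteins, and some of them also activate the effectors directly. In mammary epithelium the balance between these groups governs the clearing of cells that lose contact with the matrix and of whole lobules during involution.

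RNA was sequenced from NMuMG cells, a line of epithelial origin from mouse mammary gland, in 4 groups of 2 libraries each. The groups are control cells without treatment, control cells given TGFβ1 at 10 ng/ml for 2 h, cells labelled knockout (KO) for the long non-coding RNA *Lnc-Nr6a1* without treatment, and cells with the same label given TGFβ1 at the same dose and time. The deletion was made with Cas9 and pairs of guides, followed by sorting of single cells and screening for clones with 1 or both alleles deleted. The paper writes the profiled cells as *Lnc-Nr6a1*−/−. Which clone or clones were sequenced is not stated, so a difference between the genotypes and a difference between clones cannot be told apart.

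The targeted gene, annotated as *Gm13507*, was counted first. Control replicates 1 and 2 held 3 and 14 of its counts, and the treated controls 25 and 35. The libraries labelled knockout held 11 and 7 counts without treatment, and 0 and 0 after treatment. Its counts thus overlapped between the untreated genotypes and separated only the treated ones, so this gene does not tell the untreated libraries apart by their label. Its counts do not decide whether the label is right. They are few and are summed over the whole gene, while the guides flank only its start. In the libraries labelled knockout the fitted log2 fold change after treatment was -6.88 (SE 1.54, edgeR adjusted p 0.0356). Totals there were 4297832 and 7181737 counts untreated and 12761749 and 13574397 treated. What lies behind the 11 and 7 counts was not tested. Other values differed by label with and without treatment: the median log2 fold change of chromosome 3 between genotypes, described with *Mcl1* below, was -0.34 in both. Whether that difference is tied to the deletion was not tested. The groups are called libraries labelled knockout throughout, and no direction between genotypes below is ascribed to loss of the RNA.

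The labelled cell type was compared with its markers, in counts relative to the library total scaled with TMM factors (CPM). Of 10 epithelial genes, 4 had at least 5 counts in every library (*Cdh1*, *Krt8*, *Krt18* and *Krt19*), with *Krt18* the most abundant. Epithelial markers were not all present: *Epcam*, *Cldn3*, *Esrp1* and *Ovol1* had at most 2 counts in every library, and *Cldn3* and *Esrp1* had 0 in all of them. *Cldn4* had 1 and 0 counts in the untreated controls, 0 and 0 in the libraries labelled knockout before treatment, and 126, 13, 30 and 162 in the treated libraries. The summed epithelial level was 5951 and 5873 CPM in the controls, 10939.7 and 8029 in the treated controls, 6969.6 and 6632 in the libraries labelled knockout before treatment, and 7939.6 and 10399.8 in the treated ones. It was higher in every treated library than in any untreated one, as were *Krt8* and *Krt18*, which make up most of it. *Krt19* was lower in both treated libraries of each genotype (968 and 1013 CPM in the controls, 928 and 940 in the treated controls, 1376 and 1300 in the libraries labelled knockout before treatment, 1251 and 1277 in the treated ones), and *Cdh1* overlapped in control cells.

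Markers of other cell types were low, apart from 1 basal keratin. The 5 basal or myoepithelial genes summed to 5.67 and 4.76 CPM in the controls, 24.0 and 25.7 in the treated controls, 2.87 and 2.92 in the libraries labelled knockout before treatment, and 42.1 and 23.9 in the treated ones. *Krt14* was the most abundant of them and the only 1 of the 5 with at least 5 counts in every library, while *Krt5*, *Acta2* and *Myh11* had at most 2 counts in each. The 7 fibroblast genes summed to between 0.797 and 4.85 CPM (most abundant *Col1a1*; *Lum* at 0), and the 5 leukocyte genes to between 2.23 and 5.45 (most abundant *Cd68*; *Cd3e* at 0). The 4 endothelial genes summed to at most 0.847 CPM (most abundant *Cdh5*; *Kdr* at 0) and the 3 adipocyte genes to at most 0.220 (most abundant *Plin1*; *Adipoq* at 0).

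Levels of different genes are compared as CPM per kilobase of exon. In untreated control cells the mean level per kilobase was highest for *Bax*, at 152, followed by *Mcl1* at 65.6, *Bcl2l1* at 40.1, *Bak1* at 29.6 and *Bmf* at 17.3. The rest of the order was *Bbc3* at 6.37, *Pmaip1* at 6.16, *Bcl2* at 2.68, *Bcl2l11* at 1.61 and *Bik* at 0. Each neighbour in this order was apart from the next in both libraries, except *Bbc3* and *Pmaip1*, whose libraries overlapped. With the longest transcript of a gene in place of all its exons as the length, *Bcl2l1* stood above *Mcl1* in each of these libraries.

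In the treated controls the order by CPM per kilobase was *Bax* (128), *Mcl1* (90.2), *Bmf* (59.9), *Bak1* (33.2), *Bcl2l1* (29.3), *Pmaip1* (9.60), *Bcl2* (2.66), *Bcl2l11* (2.62) and *Bbc3* (1.57). *Bmf* thus stood at rank 3 rather than 5, and *Bbc3* at rank 9 rather than 6; libraries of *Bak1* and *Bcl2l1*, of *Bcl2* and *Bcl2l11*, and of *Bcl2l11* and *Bbc3* overlapped. In the untreated libraries labelled knockout it was *Bax* (125), *Mcl1* (52.2), *Bcl2l1* (37.5), *Bak1* (26.8), *Bmf* (17.9), *Bbc3* (5.14), *Bcl2* (3.80), *Pmaip1* (3.64), *Bcl2l11* (1.57) and *Bik* (0.117), with overlap only between *Bcl2* and *Pmaip1*. In the treated libraries labelled knockout it was *Bax* (119), *Mcl1* (68.0), *Bmf* (54.6), *Bak1* (33.6), *Bcl2l1* (28.9), *Pmaip1* (4.53), *Bcl2* (3.89), *Bcl2l11* (2.61), *Bbc3* (1.88) and *Bik* (0.0421). There the libraries of *Mcl1* and *Bmf*, of *Bak1* and *Bcl2l1*, and of *Bcl2l11* and *Bbc3* overlapped. With the longest transcript as the length these orders changed too: *Bcl2l1* stood above *Mcl1* in both untreated libraries labelled knockout and above *Bak1* in all 4 treated libraries, and the mean of *Bcl2l11* stood above that of *Bcl2* in both treated groups.

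The 3 functional groups were also expressed as percent of the summed CPM per kilobase of the 10 genes. The BH3-only genes made up 9.92 and 9.66% in the controls, 17.8 and 24.5% in the treated controls, 11.3 and 9.46% in the libraries labelled knockout before treatment, and 23.7 and 16.5% in the treated ones. Every treated library was above every untreated library in this share, also when computed with the longest transcript, and the rise is that of *Bmf*. With *Bmf* left out of the group and of the total, a measure added after these shares were seen, the other BH3-only genes made up 4.74 and 4.55% in the controls, 4.28 and 5.17% in the treated controls, 4.05 and 4.15% in the libraries labelled knockout before treatment, and 2.998 and 3.853% in the treated ones. They thus overlapped in control cells, and both treated libraries labelled knockout were below both untreated ones. The effectors made up 60.7 and 51.5%, 47.1 and 42.4%, 54.5 and 56.3%, and 47.7 and 48.5% in the same order, so each treated library was below each untreated one. As percent of the genes other than *Bmf* the effectors made up 64.2 and 54.4%, 54.9 and 53.2%, 59.0 and 59.6%, and 60.7 and 55.9%, and treated and untreated libraries overlapped in each genotype. The lower share of the effectors therefore does not show that their own levels fell. The pro-survival genes made up between 28.6 and 38.9% and overlapped between all groups.

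**Figure D1:**
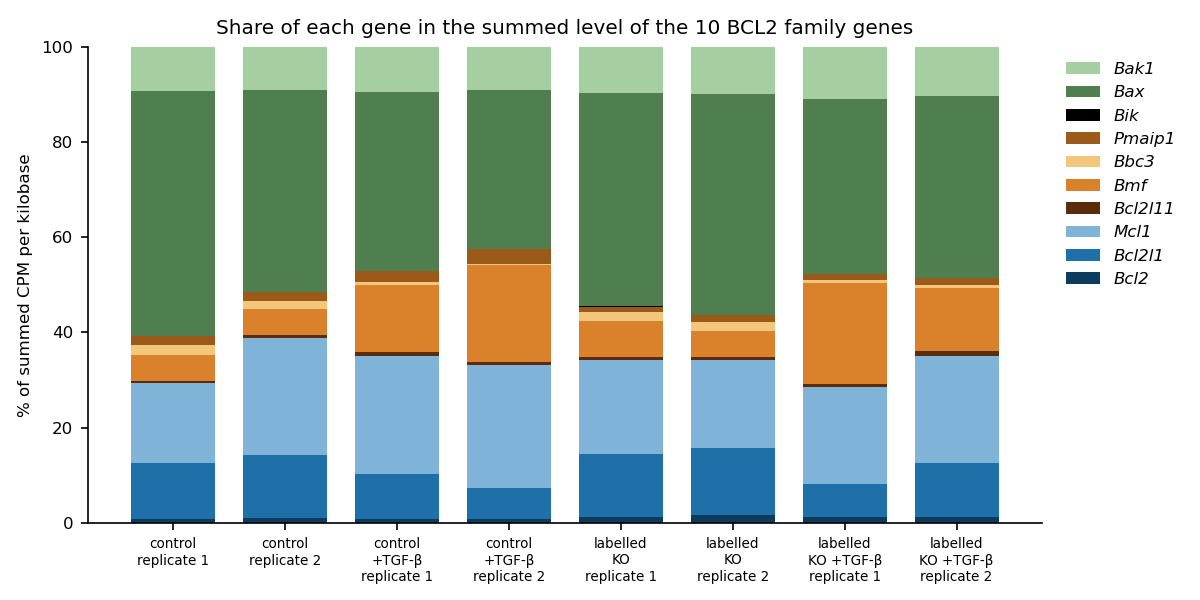
Stacked bars give each gene's percent of the summed CPM per kilobase of the 10 BCL2 family genes in each of the 8 libraries, pro-survival genes in blue, BH3-only genes in brown and orange, effectors in green. *Bmf* takes 5.44 and 5.35% in the controls and 14.1 and 20.4% in the treated controls, 7.53 and 5.54% in the libraries labelled knockout before treatment and 21.4 and 13.2% after it. *Bax* is the largest single share in every library, from 33.2% to 51.4%.

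Differences between groups were tested with edgeR over all 13028 genes, and a gene was called at an adjusted p (Benjamini-Hochberg) below 0.05 with an absolute log2 fold change above 0.5. Among the 9 BCL2 family genes tested, 2 were called after TGF-β in control cells, where 9.16% of all genes were called, and 1 after TGF-β in the libraries labelled knockout, where 6.82% were. Between the genotypes, 1 was called in treated cells against 15.0% of all genes, and 0 in untreated cells against 1.83%. For these untreated groups DESeq2 and limma-voom also called 0 family genes, and 2 had an unadjusted p below 0.05 in edgeR (*Bcl2* and *Pmaip1*), 1 in DESeq2 and 2 in limma-voom. Over all genes 1936 of 13028 had such a p in edgeR, 1686 in DESeq2 and 1764 in limma-voom, so nothing particular to the family is read from this. The comparisons share libraries pairwise and are not independent of each other.

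The number of genes called in all depended on single libraries. Untreated, 238 genes were called between genotypes, but 53 and 48 without replicate 1 or 2 labelled knockout, 51 and 42 without control replicate 1 or 2, and 385 and 390 without treated control replicate 1 or 2. After TGF-β in control cells 1194 were called, but 617 and 612 without untreated replicate 1 or 2 labelled knockout, and 145 and 314 without control replicate 1 or 2. Libraries outside a comparison thus change its count too. After TGF-β in the libraries labelled knockout 889 were called, but 136 and 174 without their untreated replicate 1 or 2, 279 without their treated replicate 2, 574 and 584 without control replicate 1 or 2, and 1380 and 1381 without treated control replicate 1 or 2. Between treated genotypes 1959 were called, but 1226 and 477 without treated replicate 1 or 2 labelled knockout and 1198 without treated control replicate 2.

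A second measure is whether all libraries of a group lie on 1 side of the other group. This held after TGF-β for 6 of 9 family genes in control cells (53.7% of all genes) and for 6 of 9 in the libraries labelled knockout (56.6%). Between genotypes it held for 4 of 9 untreated (51.9%) and 3 of 9 treated (55.8%). The median log2 fold change of the 9 genes was 0.17 and 0.30 after TGF-β in control cells and with the knockout label, against 0.02 and 0.00 over all genes tested. Between genotypes it was -0.15 untreated and -0.02 treated, against 0.02 and -0.01. Nothing particular to the family is read from these counts.

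**Figure D2:**
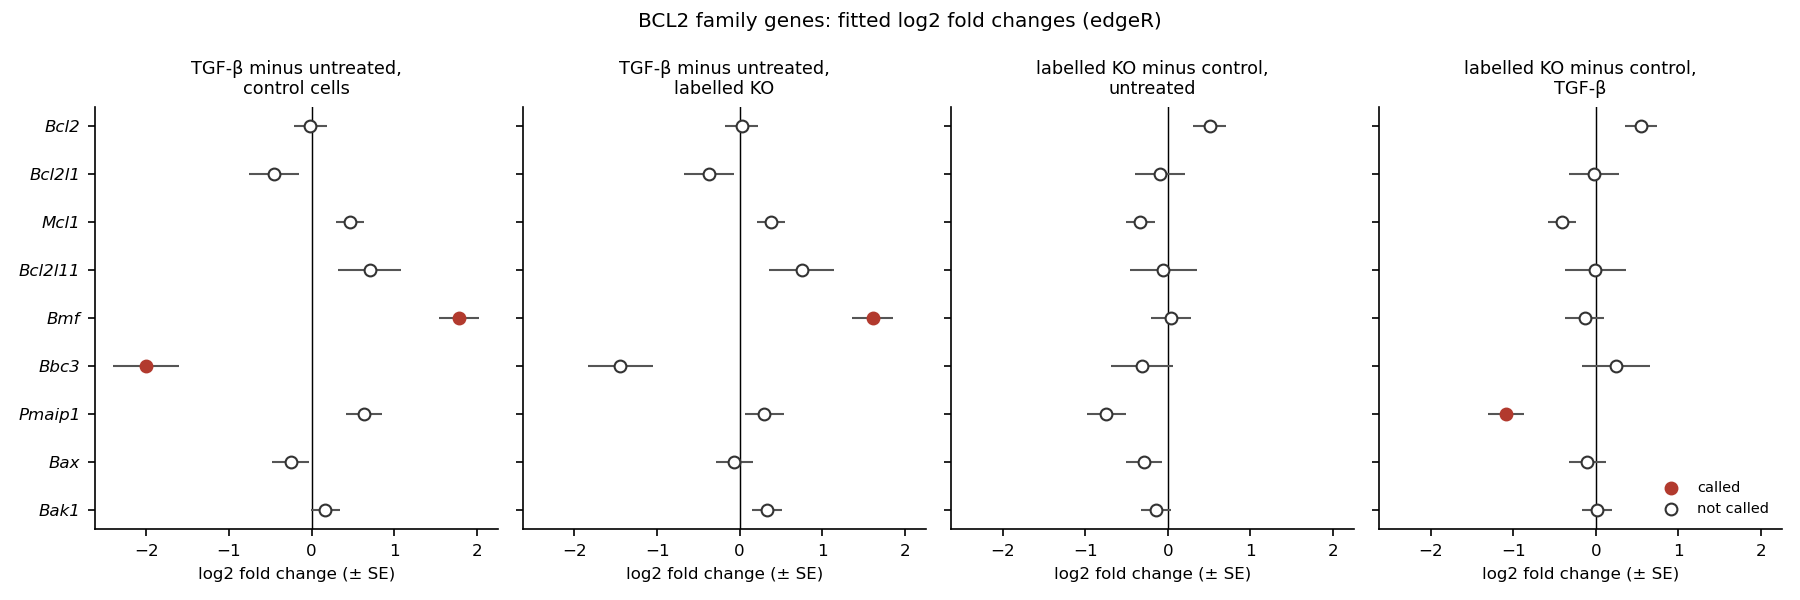
Fitted log2 fold changes of the 9 tested BCL2 family genes, with their standard errors, in the 4 pairwise comparisons; the horizontal axis is the log2 fold change, and filled red points were called. *Bmf* lies at 1.79 and 1.61 in the 2 panels of TGF-β against untreated, and *Bbc3* at -2.00 and -1.44 in the same panels, the second of them open. *Pmaip1* is the filled point at -1.08 in the panel of treated genotypes, and no point is filled in the panel of untreated genotypes.

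Treated and untreated libraries differed in other values as well. Totals ran from 9895118 to 13574397 counts in the treated libraries and from 4297832 to 7871090 in the untreated ones. All genes named 7SK together held 1.13 and 1.42% of counts in the controls, 1.87 and 2.15% in the treated controls, 1.44 and 1.38% in the libraries labelled knockout before treatment, and 1.48 and 1.47% in the treated ones. Depth and the *Krt14* level thus moved with treatment in both genotypes, and the 7SK share did so mainly in control cells. Their part in the differences after TGF-β was not tested. The 37 mitochondrial genes held 0% of counts in every library, so RNA quality cannot be read from their share. In bulk samples fewer cells of a type and less RNA per cell cannot be told apart.

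Among the pro-survival genes, *Mcl1* encodes a short-lived protein that restrains BAK. It was at 206 and 251 CPM in the controls, 353 and 275 in the treated controls, 193 and 171 in the libraries labelled knockout before treatment, and 223 and 250.5 in the treated ones. Within each genotype both treated libraries were above both untreated ones, and within each treatment both libraries labelled knockout were below both controls. The log2 fold change after TGF-β was 0.46 (SE 0.17, edgeR adjusted p 0.121, range over the alternatives 0.0617 to 0.515) in control cells and 0.38 (SE 0.17, adjusted p 0.221, range 0.0964 to 0.565) in the libraries labelled knockout. Between genotypes it was -0.33 (SE 0.17, edgeR adjusted p 0.410, range 0.163 to 0.919) untreated and -0.41 (SE 0.17, adjusted p 0.135, range 0.0740 to 0.444) treated. *Mcl1* was called in none of the 4. Its log2 fold change after TGF-β in control cells was 0.25 without treated control replicate 1 and 0.63 without treated control replicate 2. In the libraries labelled knockout it ran from 0.30 to 0.49 under the alternatives.

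*Mcl1* lies on chromosome 3, where the median log2 fold change between genotypes was below that of all genes. Over the 641 tested genes of this chromosome it was -0.34 untreated, with 80.7% of them below 0, and -0.34 treated, with 73.6% below 0. Over all genes the medians were 0.02 and -0.01. Under the alternatives the chromosome 3 median ran from -0.38 to -0.32 untreated and from -0.36 to -0.29 treated. The log2 fold change of *Mcl1* itself ran from -0.47 to -0.18 untreated and from -0.57 to -0.20 treated, so that its size next to the chromosome's median depends on single libraries. What lowers that median was not tested.

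*Bcl2l1* encodes BCL-XL, which holds back both effectors. It was at 195 and 184 CPM in the controls, 183 and 93.8 in the treated controls, 177 and 178 in the libraries labelled knockout before treatment, and 102 and 171 in the treated ones. A single low library in each treated group, replicate 2 of the controls and replicate 1 of the libraries labelled knockout, carries most of the difference, and the replicates of the treated controls differ 1.95-fold. The log2 fold change after TGF-β was -0.45 (SE 0.30, edgeR adjusted p 0.376, range over the alternatives 0.0389 to 0.927) in control cells. Without treated control replicate 1, which leaves 1 library in that group, it was -1.03 and passed the threshold (edgeR adjusted p 0.0389), and the library left out lay only just below the untreated ones. Without treated control replicate 2 it was -0.049 (adjusted p 0.927). In the libraries labelled knockout it was -0.37 (SE 0.31, edgeR adjusted p 0.513, range 0.317 to 0.984), again with both treated libraries lower. There it was -0.026 without treated replicate 1 and -0.76 without treated replicate 2, so this difference too rests on 1 library. Between genotypes *Bcl2l1* was at -0.10 untreated and -0.02 treated, and the second value turned positive under 3 other fits and without treated replicate 1 labelled knockout (0.31) or treated control replicate 1 (0.56).

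*Bcl2*, the founding member of the family, was lower in level per kilobase than the other two pro-survival genes. It was at 17.7 and 20.9 CPM in the controls, 20.3 and 17.9 in the treated controls, 24.5 and 30.2 in the libraries labelled knockout before treatment, and 26.0 and 29.9 in the treated ones. All 4 libraries labelled knockout were above all 4 control libraries, and treatment left the groups overlapping. The log2 fold change between genotypes was 0.51 (SE 0.20, edgeR adjusted p 0.279, range over the alternatives 0.162 to 0.664) untreated and 0.55 (SE 0.20, adjusted p 0.0909, range 0.0733 to 0.362) treated. Neither was called, and after TGF-β the values were -0.01 in control cells (range over the alternatives -0.13 to 0.11) and 0.03 in the libraries labelled knockout (-0.11 to 0.20).

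Among the BH3-only genes, *Bmf* encodes a protein that is tethered to the cytoskeleton through dynein light chain and is linked to death after loss of attachment. It was at 99.9 and 82.4 CPM in the controls, 302 and 327 in the treated controls, 111 and 77.1 in the libraries labelled knockout before treatment, and 351 and 223 in the treated ones. All 4 treated libraries were above all 4 untreated ones in both genotypes, and the genotypes overlapped. After TGF-β *Bmf* rose 3.45-fold in control cells, a log2 fold change of 1.79 (SE 0.25, edgeR adjusted p 0.00344, higher in 2 of 2 libraries). It was called under each of the 15 alternative settings, with log2 fold changes from 1.66 to 1.93 and adjusted p by the Benjamini-Hochberg method from 4.27e-20 to 0.0398.

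In the libraries labelled knockout *Bmf* rose 3.05-fold after TGF-β, a log2 fold change of 1.61 (SE 0.25, edgeR adjusted p 0.00565, higher in 2 of 2 libraries). It was called under 14 of the 15 alternative settings. Without untreated replicate 2 of these libraries, the lowest of the 8, the log2 fold change was 1.37 and the edgeR adjusted p 0.0813, against a range from 9.37e-18 to 0.0813 over all settings. The difference between the responses of the genotypes was -0.18 (SE 0.34, 95% interval -0.94 to 0.58, edgeR adjusted p 0.927, range 0.689 to 1.00), which leaves room for a response in the libraries labelled knockout that is smaller or larger. Between genotypes the log2 fold change was 0.04 untreated (range over the alternatives -0.24 to 0.28) and -0.13 treated (-0.49 to 0.17), both with overlapping libraries.

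*Bbc3* encodes PUMA, a target of p53 that binds all pro-survival proteins. It was at 15.2 and 10.4 CPM in the controls, 4.31 and 2.01 in the treated controls, 10.8 and 9.84 in the libraries labelled knockout before treatment, and 3.10 and 4.45 in the treated ones. The counts behind these values were 126, 85, 46, 19, 49, 74, 38 and 56 in the same order, and all 4 treated libraries were below all 4 untreated ones. In control cells *Bbc3* was 4.00-fold lower after TGF-β, a log2 fold change of -2.00 (SE 0.40, edgeR adjusted p 0.0181, lower in 2 of 2 libraries, range over the alternatives 2.28e-06 to 0.160). Its direction was the same under every alternative, but without control replicate 1, the highest library, the log2 fold change was -1.70 and the gene was no longer called (edgeR adjusted p 0.160). Without treated control replicate 1 it was -2.67, and without treated control replicate 2 it was -1.57; both were called.

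In the libraries labelled knockout the log2 fold change of *Bbc3* after TGF-β was -1.44 (SE 0.40, edgeR adjusted p 0.0612, lower in 2 of 2 libraries, range over the alternatives 0.00272 to 0.237), and the gene was not called. It was called by DESeq2 (adjusted p 0.0249), without a filter on low counts (0.00272), in a fit of the 4 libraries compared (0.0405), and without treated control replicate 1 (0.0219) or 2 (0.0208), in each case after Benjamini-Hochberg adjustment. That *Bbc3* was called in 1 genotype only does not show a difference: the responses differed by 0.56 (SE 0.56, 95% interval -0.69 to 1.81, edgeR adjusted p 0.818, range 0.311 to 0.988), and this difference ran from 0.15 to 1.26 under the alternatives. Between genotypes its log2 fold change was -0.31 untreated (range over the alternatives -0.56 to -0.016) and 0.24 treated (-0.19 to 0.92), with overlapping libraries. *Bbc3* and *Bax* lie on chromosome 7, where the median over 943 genes was -0.25 untreated (range over the alternatives -0.29 to -0.21) and -0.14 treated (-0.19 to -0.01).

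*Pmaip1* encodes NOXA, which binds MCL1 in preference to the other pro-survival proteins. It was at 17.7 and 14.9 CPM in the controls, 25.3 and 25.5 in the treated controls, 8.38 and 10.9 in the libraries labelled knockout before treatment, and 11.1 and 12.9 in the treated ones. All 4 libraries labelled knockout were below all 4 control libraries, and within each genotype both treated libraries were above both untreated ones. Between treated genotypes *Pmaip1* was 2.12-fold lower in the libraries labelled knockout, with a fitted log2 fold change of -1.08 (SE 0.22, edgeR adjusted p 0.0129, lower in 2 of 2 libraries, range over the alternatives 0.00176 to 0.0660). Without treated replicate 1 labelled knockout it was -0.97 (edgeR adjusted p 0.0660), without treated replicate 2 it was -1.18 (0.0587), and in a fit of only the 4 libraries compared it was -1.08 (0.0570), so none of these 3 passed the threshold.

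Untreated, *Pmaip1* was lower in the libraries labelled knockout as well, at a log2 fold change of -0.74 (SE 0.23, edgeR adjusted p 0.167, range over the alternatives 0.0928 to 0.580), and was not called. After TGF-β it was at 0.64 (SE 0.22, edgeR adjusted p 0.0984, range 0.0766 to 0.366) in control cells and 0.30 (SE 0.23, adjusted p 0.490, range 0.403 to 0.865) in the libraries labelled knockout. The difference between these responses was -0.34 (SE 0.32, 95% interval -1.05 to 0.37, edgeR adjusted p 0.801, range 0.700 to 1.00). The lower level with the knockout label thus appears with and without treatment, although only the treated groups passed the threshold. The size of the response with the knockout label depends on single libraries. Its log2 fold change was 0.14 without untreated replicate 1 and 0.52 without untreated replicate 2. The difference between the responses ran from -0.50 to -0.11 under the alternatives.

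*Bcl2l11* encodes BIM, an activator of the effectors that binds all pro-survival proteins. It was at 11.2 and 14.6 CPM in the controls, 26.3 and 15.7 in the treated controls, 14.11 and 11.03 in the libraries labelled knockout before treatment, and 13.2 and 28.7 in the treated ones. In each treated group 1 library was high, replicate 1 of the controls and replicate 2 of the libraries labelled knockout, and the other stood near the untreated level. The log2 fold change after TGF-β was 0.70 (SE 0.39, edgeR adjusted p 0.275, range over the alternatives 0.0846 to 0.710) in control cells, where the groups were apart, and it was 0.26 without treated replicate 1 and 1.02 without treated replicate 2. In the libraries labelled knockout, where they overlapped, it was 0.75 (SE 0.39, edgeR adjusted p 0.298, range 0.0410 to 0.931), and without a filter on low counts it was called at 0.81 (adjusted p 0.0410). There it was 1.23 without treated replicate 1 and 0.11 without treated replicate 2, so its size rests on 1 library. Between genotypes it was -0.05 untreated (range -0.24 to 0.15) and -0.01 treated (-0.66 to 0.45). *Bik*, the last of the BH3-only genes, had 1 count in untreated replicate 1 and 1 count in treated replicate 2 labelled knockout and 0 in the other 6 libraries, so no fold is given.

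**Figure D3:**
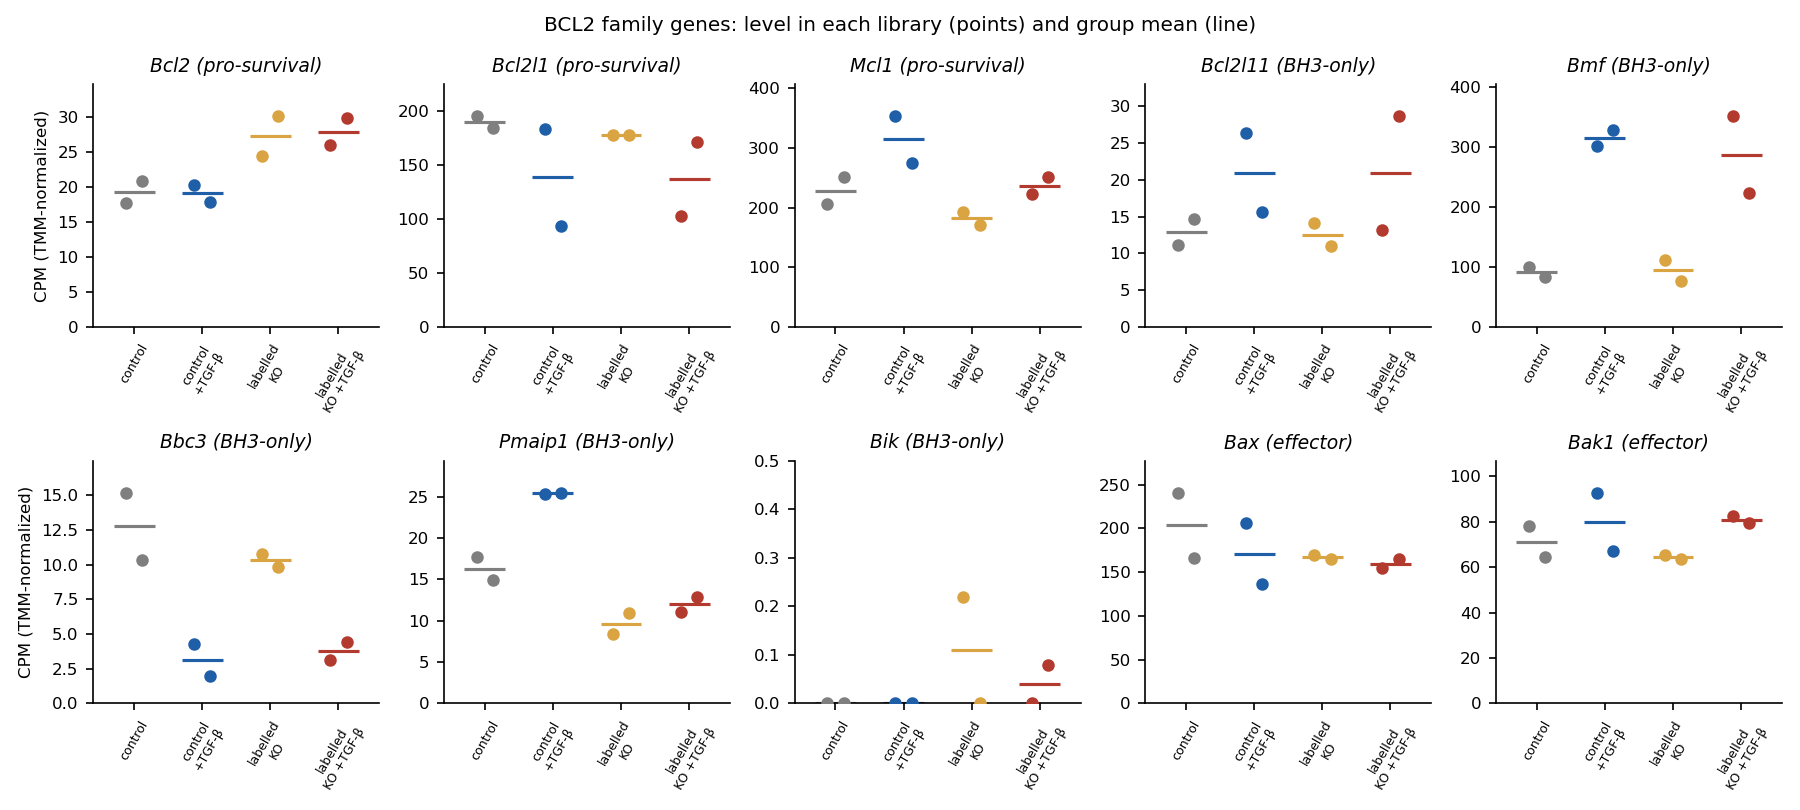
CPM of each of the 10 BCL2 family genes in the 8 libraries, 1 panel per gene with its own vertical axis from 0; points are libraries and lines are means of 2. *Bmf* separates by treatment, from 77.1 to 111 CPM untreated and from 223 to 351 CPM treated, and *Bbc3* separates in the opposite direction. *Bcl2* and *Pmaip1* separate by genotype label instead, *Bcl2* up and *Pmaip1* down in the libraries labelled knockout. Between genotypes only *Pmaip1* was called, and only in the treated libraries. In *Bcl2l1* and *Bcl2l11* the 2 treated points of a group lie far apart.

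The effectors *Bax* and *Bak1*, whose proteins form the mitochondrial pores, were called in no comparison. *Bax* was between 136 and 241 CPM in the 8 libraries, and the groups overlapped in all 4 comparisons. Its log2 fold changes were -0.25 and -0.07 after TGF-β in control cells and with the knockout label, and -0.29 and -0.10 between genotypes, untreated and treated. Each turned positive without a single library: to 0.040 without control replicate 1 or 0.017 without treated control replicate 2 in control cells, to 0.0043 without treated replicate 1 labelled knockout in the libraries so labelled, to 0.0011 without control replicate 1 untreated, and to 0.25 without treated control replicate 1 treated. *Bak1* was between 63.4 and 92.8 CPM. Its groups were apart only after TGF-β in the libraries labelled knockout, at 65.5 and 63.4 CPM untreated and 82.3 and 79.2 treated, a log2 fold change of 0.33 (SE 0.18, edgeR adjusted p 0.329, range over the alternatives 0.146 to 0.595). Its log2 fold change after TGF-β in control cells was 0.17 (range -0.10 to 0.38). Between genotypes it was -0.15 untreated (-0.28 to -0.0060) and 0.01 treated (-0.20 to 0.28).

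Whether the response to TGF-β differs between genotypes was tested as an interaction, called by the adjusted p alone. In edgeR 0 of 13028 genes were called (0.00%), with 1134 at an unadjusted p below 0.05; DESeq2 called 31 (898 unadjusted) and limma-voom 0 (1100 unadjusted). Without treated control replicate 1 edgeR called 4 genes and without treated control replicate 2 it called 6. None of the 9 family genes was called by any of the 3 tools, and 0 had an unadjusted p below 0.05 in any of them.

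The genes most like *Bmf* and *Bbc3*, the family genes with the smallest p after TGF-β in control cells, were sought by Pearson correlation of log2 CPM over the 8 libraries. For *Bmf* these were *Dhx32*, *Ube2q2* and *Tnfrsf13c* (r = 0.98 for each). For *Bbc3* they were *Angpt2*, *Arhgap39* and *Mid1ip1* (r = 0.99 for each). *Tnfrsf13c* was at 0 CPM in all 4 untreated libraries and between 0.636 and 1.69 CPM in the treated ones, so its r rests on being detected only after treatment. The 8 points fall into 4 groups, and treated libraries were also the deeper ones. Between *Bmf* and *Bbc3* themselves r was -0.92. Both were picked by their p after TGF-β in these same libraries, and they moved in opposite directions. This r is therefore not a separate result.

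Of 51 further genes of the apoptosis pathway, 42 were tested. After TGF-β in control cells 2 were called, both higher, and in the libraries labelled knockout 4 were called, 3 higher and 1 lower. Between treated genotypes 3 were called, 1 higher and 2 lower. Between untreated genotypes edgeR called 0, with 4 at an unadjusted p below 0.05, while DESeq2 called 1 (3 unadjusted) and limma-voom 0 (4 unadjusted). There edgeR called 2 without a filter on low counts and 2 with only the 4 libraries compared. Of all genes, 1.83% were called between untreated genotypes, and 1936 of 13028 had an unadjusted p below 0.05 in edgeR. In the interaction edgeR, DESeq2 and limma-voom called 0, with 0, 0 and 2 unadjusted. Of all genes, 9.16% were called after TGF-β in control cells, 6.82% in the libraries labelled knockout, and 15.0% between treated genotypes. With a library left out the pathway counts in these comparisons ran from 0 to 5, from 0 to 4 and from 0 to 4, so nothing particular to the pathway is read from them.

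*Fbxw7*, whose protein marks MCL1 for degradation, rose after TGF-β from 30.2 and 33.2 CPM to 60.7 and 72.9 in control cells and from 26.7 and 28.3 to 55.1 and 49.8 in the libraries labelled knockout. Treated and untreated libraries did not overlap. The log2 fold changes were 1.08 (SE 0.16, edgeR adjusted p 0.00543, range over the alternatives 2.18e-05 to 0.0841) and 0.93 (SE 0.17, adjusted p 0.0117, range 1.46e-04 to 0.112). The first was not called without control replicate 1 (edgeR adjusted p 0.0841), and the second not without untreated replicate 1 (0.112) or 2 (0.0978) labelled knockout.

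*Runx1*, a transcription factor, rose from 25.9 and 31.1 CPM to 142 and 83.7 in control cells and from 28.0 and 30.3 to 109.7 and 194 in the libraries labelled knockout, again without overlap. The log2 fold changes were 1.99 (SE 0.31, edgeR adjusted p 0.00641, range over the alternatives 2.50e-20 to 0.0855) and 2.38 (SE 0.32, adjusted p 0.00328, range 1.09e-29 to 0.0550). The call was lost in control cells without control replicate 1, at a log2 fold change of 1.86. In the libraries labelled knockout it was lost without untreated replicate 1 (log2 fold change 2.33) or 2 (2.45).

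The other pathway calls were lost under more of the alternatives, but kept their direction under all 15. Where called, their log2 fold changes ran from 0.82 to 1.32 (*Foxo1*) and from -0.66 to -0.53 (*Apaf1*). They ran from -1.53 to -0.83 (*Bnip3*), from -1.54 to -0.73 (*Fas*) and from 0.58 to 1.02 (*Dynll2*). *Foxo1*, a forkhead factor, was at 1.07 (SE 0.24, edgeR adjusted p 0.0286, higher in 2 of 2 libraries, range over the alternatives 3.78e-04 to 0.222) after TGF-β in the libraries labelled knockout. It was not called without untreated replicate 1 (0.101) or 2 (0.222), treated replicate 2 (0.185), or control replicate 1 (0.0504) or 2 (0.0504), each an edgeR adjusted p. *Apaf1*, which forms the apoptosome, was at -0.62 there (SE 0.14, edgeR adjusted p 0.0330, lower in 2 of 2 libraries, range 0.0261 to 0.238). It was called without treated control replicate 1 or 2, and not without any other library: edgeR adjusted p 0.140 and 0.219 without untreated replicate 1 or 2 labelled knockout, 0.0881 and 0.238 without treated replicate 1 or 2, and 0.0748 and 0.0741 without control replicate 1 or 2. It was not called with the replicate block (0.0583) or without a filter on low counts (0.0670) either.

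Between treated genotypes *Bnip3*, a BH3-like gene of mitophagy, was at -1.17 (SE 0.31, edgeR adjusted p 0.0330, lower in 2 of 2 libraries, range over the alternatives 0.00202 to 0.212). It was lower in the untreated libraries labelled knockout as well, at -1.54 (SE 0.35, edgeR adjusted p 0.0645). *Bnip3* also lies on chromosome 7, where the median between genotypes was -0.25 untreated and -0.14 treated. The death receptor gene *Fas* was at -1.09 (SE 0.32, edgeR adjusted p 0.0498, lower in 2 of 2 libraries, range 0.00235 to 0.207), and *Dynll2*, which encodes a dynein light chain that binds BMF, at 0.77 (SE 0.22, edgeR adjusted p 0.0428, higher in 2 of 2 libraries, range 0.00637 to 0.153). Each of these 3 calls was lost under several alternatives. In a fit of only the 4 libraries compared the edgeR adjusted p was 0.109 for *Bnip3*, 0.109 for *Fas* and 0.112 for *Dynll2*; with the replicate block it was 0.0524 for *Bnip3*, and with RLE size factors 0.0505 for *Fas*. *Bnip3* missed the threshold without any of 6 libraries, at edgeR adjusted p values of 0.0594 (control replicate 1), 0.0589 (control replicate 2), 0.144 (treated control replicate 2), 0.0542 (untreated replicate 1 labelled knockout), 0.0538 (untreated replicate 2 labelled knockout) and 0.212 (treated replicate 2 labelled knockout). *Fas* missed it without any of 8, at 0.0841 (control replicate 1), 0.0834 (control replicate 2), 0.0548 (treated control replicate 1), 0.118 (treated control replicate 2), 0.0526 (untreated replicate 1 labelled knockout), 0.0536 (untreated replicate 2 labelled knockout), 0.207 (treated replicate 1 labelled knockout) and 0.0507 (treated replicate 2 labelled knockout). *Dynll2* missed it without any of 6, at 0.05005 (control replicate 1), 0.153 (treated control replicate 2), 0.0757 (untreated replicate 1 labelled knockout), 0.0750 (untreated replicate 2 labelled knockout), 0.140 (treated replicate 1 labelled knockout) and 0.114 (treated replicate 2 labelled knockout); these too are edgeR adjusted p values, and each was computed with 1 library left out.

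Some counts could be shared with other genes. *Bcl2* overlaps *D630008O14Rik* and *Bak1* overlaps *Ggnbp1* on the opposite strand, and these 2 genes had 0 and 72 counts over all 8 libraries. *Bcl2l1* contains the microRNA gene *AL731857.1*, with 8 counts, but the exons of these genes overlap by 0 bp. Of the longest transcripts of the 10 genes, only that of *Bmf* has a second copy in the genome of at least 75 bp at 95% identity or more: 337 bp at its 3′ end, 7.26% of its 4642 bp, match chr4:4316142-4316478 (NCBIM37) at 98.2% identity. No gene is annotated there, so the rise of *Bmf* cannot be compared with counts of that copy.

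The *Lnc-Nr6a1* locus carries the genes of miR-181a and miR-181b, and RefSeq (GRCm38.p6) holds both mature sequences, at chr2:38852741-38852763 and chr2:38853845-38853868 on the plus strand. They are shown because 3 of the family genes hold a match to their shared seed, bases 2 to 8, in capitals.
mmu-miR-181a-5p: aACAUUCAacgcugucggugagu
mmu-miR-181b-5p: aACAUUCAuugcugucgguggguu

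The letters TGAATGT, complementary to this seed, were searched in the longest annotated 3′ UTR of 9 of the 10 genes (GENCODE vM1, NCBIM37), and *Pmaip1* was not searched. *Bcl2*, *Bcl2l1* and *Bcl2l11* hold 1 match each, at chr1:108436408-108436414 (minus strand), chr2:152607271-152607277 (minus strand) and chr2:127984284-127984290 (plus strand). The sites are given with 11 bases on each side, the match in capitals, and in *Bcl2* and *Bcl2l11* an A follows it.
Bcl2: ataatcaggacTGAATGTagataatgggt
Bcl2l1: cacttgtggtcTGAATGTtctcctgaggc
Bcl2l11: aatatttgttgTGAATGTaaacaagggag

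*Mcl1*, *Bmf*, *Bbc3*, *Bik*, *Bax* and *Bak1* hold 0 matches. Over all genes with a 3′ UTR, 2871 of 19999 (14.4%) hold at least 1. Among genes whose 3′ UTR is within 20% of the same length the share is 46.3% for *Bcl2*, 17.1% for *Bcl2l1* and 39.8% for *Bcl2l11*, so such matches are common at these lengths. A match is a description of the sequence, and mature microRNAs were not measured in these libraries.

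Promoters of *Bmf* and *Bbc3* are shown because these genes moved in opposite directions after TGF-β. RefSeq (GRCm38.p6) gives 15 promoter windows of 300 bases for 8 of the 10 genes, all but *Pmaip1* and *Bik*. Both strands were searched for CAGAC (SMAD), TGANTCA (AP-1), GTAAACA (forkhead) and CACGTG (E-box of the MYC type), where N is any base, and no match in the windows of the family overlaps another. Of 32851 windows of all genes, 49.6% hold CAGAC, 7.81% TGANTCA, 3.65% GTAAACA and 7.15% CACGTG; of the 15 windows of the family, 6, 0, 2 and 2 do. *Bmf* has 3 windows, of which 1 holds CAGAC 3 times and the others hold none of the 4. *Bbc3* also has 3, with CAGAC once in the first, CAGAC 2 times and GTAAACA once in the second, and CACGTG once in the third, which overlaps the second. Shown are chr2:118544538-118544837 (minus strand) for *Bmf* and chr7:16310011-16310310 (plus strand) for *Bbc3*, with matches in capitals; all lie on the other strand and read GTCTG or TGTTTAC here.
Bmf: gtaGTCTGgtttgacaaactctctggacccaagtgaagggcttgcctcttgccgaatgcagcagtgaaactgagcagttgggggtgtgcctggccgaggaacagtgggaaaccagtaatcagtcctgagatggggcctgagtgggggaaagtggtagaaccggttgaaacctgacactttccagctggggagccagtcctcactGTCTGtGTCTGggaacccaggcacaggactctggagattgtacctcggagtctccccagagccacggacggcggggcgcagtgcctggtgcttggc
Bbc3: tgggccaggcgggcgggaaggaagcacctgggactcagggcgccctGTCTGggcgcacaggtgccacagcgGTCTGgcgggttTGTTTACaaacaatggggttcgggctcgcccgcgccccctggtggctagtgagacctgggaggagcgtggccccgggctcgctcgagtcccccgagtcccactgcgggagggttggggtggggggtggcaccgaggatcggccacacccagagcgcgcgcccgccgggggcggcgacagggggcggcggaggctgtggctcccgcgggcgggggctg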

How the data were processed

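RNA-seq counts of 8 libraries of NMuMG cells were analysed. The authors deposited counts, whole numbers of reads per gene without normalization, in 1 table whose gene identifiers and order are those of GENCODE vM1 (NCBIM37). The paper and the sample labels differ on RNA extraction, library kit, sequencer and read layout, and the sources used here give neither the counting tool nor its strand setting. The tools were R 4.3.3 and edgeR 4.0.16: filterByExpr selected genes, TMM gave the scaling, and glmQLFit took 1 model of 4 groups over the 8 libraries. P-values of each contrast came from glmQLFTest, with Benjamini-Hochberg adjustment over 13028 genes. The p-values rest on the spread between 2 libraries per group (4 residual and 5.50 prior degrees of freedom; biological coefficient of variation 0.180). A standard error is the absolute log2 fold change divided by the square root of F. Totals ran from 4297832 to 13574397 counts, so that 3 counts correspond to 0.661 CPM in the smallest library and 0.238 CPM in the largest. The members and lists were chosen with earlier results of these data known. Genes named are the 10 members, the targeted gene, pathway genes called in a comparison and the 3 genes most like each of 2 members; markers were listed by cell type (1 planned marker is not reported here), and the single *Bnip3* value without a call was chosen after it was seen. Alternatives were DESeq2 1.42.0, limma-voom (limma 3.58.1), RLE factors, no filter, a filter at a mean of 10 counts, a replicate block, only the 4 libraries compared, no fold change threshold, the longest transcript as length, and each library left out in turn. Sequences were searched with Python 3.11.15 and BLAST 2.17.0. RT-qPCR, ChIP-seq and protein experiments were not used here.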

Additional observations from a re-analysis of the deposited data

How the results depend on the processing

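Among log2 fold changes of the family genes, 295 values in fits other than those with a library left out kept their direction and their side of the threshold, 4 newly passed it, 1 no longer did, and 6 changed sign. With a library left out, 311 kept both, 3 newly passed, 4 no longer did, and 42 changed sign. No called value changed sign. The 6 were *Bcl2l11* (0.0022 in DESeq2, 0.023 without a filter) and *Bcl2l1* (0.010 in limma-voom, 0.0089 without a filter, 0.0025 with the replicate block) between treated genotypes, and *Bcl2l11* in the interaction (-0.0027 in limma-voom).

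With a library left out, the log2 fold changes that changed sign ran as follows: untreated genotypes, *Bmf* -0.24 to 0.28, *Bcl2l11* -0.24 to 0.15 and *Bax* -0.53 to 0.0011; TGF-β in control cells, *Bax* -0.59 to 0.040, *Bcl2* -0.13 to 0.11 and *Bak1* -0.10 to 0.38; TGF-β in the libraries labelled knockout, *Bcl2* -0.11 to 0.20 and *Bax* -0.083 to 0.0043; treated genotypes, *Bak1* -0.20 to 0.28, *Bcl2l1* -0.43 to 0.56, *Bcl2l11* -0.66 to 0.45, *Bbc3* -0.19 to 0.92, *Bmf* -0.49 to 0.17 and *Bax* -0.37 to 0.25; interaction, *Bcl2* -0.093 to 0.21, *Bmf* -0.51 to 0.15, *Mcl1* -0.22 to 0.16, *Bcl2l11* -0.58 to 0.53, *Bcl2l1* -0.31 to 0.68, *Bax* -0.10 to 0.56 and *Bak1* -0.028 to 0.45. The library left alone in its group is assumed to vary like the other groups.

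Family genes called after TGF-β in the libraries labelled knockout, 1 in edgeR, were 2 by DESeq2, 3 without a filter and 2 with only the 4 libraries compared, and between treated genotypes 0 with only those 4. With a library left out they were 1 to 3 after TGF-β in control cells, 0 to 2 in the libraries labelled knockout, 0 to 1 between treated genotypes, and 0 untreated and in the interaction. With the replicate block *Bmf* and *Bbc3*, *Bmf*, and *Pmaip1* were called, the same genes.

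Counts over all genes differed more. Between untreated genotypes they were 401 by DESeq2, 137 by limma-voom, 756 without a filter, 804 with only the 4 libraries compared and 150 with the replicate block, and 42 to 390 with a library left out. After TGF-β in control cells they were 2021 without a filter, 470 with only the 4 libraries and 145 to 1484 with a library left out; in the libraries labelled knockout 1832 without a filter and 136 to 1381; between treated genotypes 410 with only the 4 libraries and 477 to 2762; and in the interaction 31 by DESeq2, 211 without a filter and 0 to 6. The cause was not tested.

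Deviations of same-numbered replicates correlated at 0.30 between control and treated control and -0.47 between the treated groups, over 13028 genes. In the other 4 pairs of groups they correlated at 0.098 (control and untreated knockout label), -0.17 (control and treated knockout label), 0.00067 (treated control and untreated knockout label) and -0.0092 (both groups with the knockout label). Exchanging the replicate numbers of the treated knockout-labelled pair, an alternative chosen after seeing the data, gave 2809 calls between treated genotypes. Replicates differed by a median of 0.33 on the log2 scale in the treated controls and 0.21, 0.20 and 0.22 in the control and in the untreated and treated groups labelled knockout, and the low counts of *Bik* limit it to its detection.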
